A study of Mus musculus with 8 samples.

Results

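The mitochondrial protein import machinery is the set of translocases, chaperones and peptidases that bring proteins made in the cytosol into mitochondria. Its 39 members here were named one by one, by gene symbol and by the role of each protein, and found on the arrays through RefSeq accessions. All 39 had a probe among the 20660 genes that could be named, and all 39 could be tested in both muscles. Transcript levels were measured in gastrocnemius, a calf muscle, and in tibialis anterior (TA), the muscle at the front of the lower leg, of mice with 1 disrupted copy of Eif6 (Eif6+/-) and of WT mice. Eif6 encodes a translation initiation factor. Each of the 8 two-colour Agilent arrays, 4 per muscle, held Cy5-labelled RNA of 1 Eif6+/- mouse and Cy3-labelled RNA of 1 age-matched WT mouse, joined at random. The mice were male C57BL6 littermates of 8 to 16 weeks, and the disrupted Eif6 copy is carried by the whole animal, not by muscle alone. A log2 ratio above 0 means more transcript in Eif6+/- than in WT. The dyes were not swapped, so a dye effect on a probe and an effect of the genotype cannot be told apart within a muscle.

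Most mitochondrial proteins are made in the cytosol and enter through the TOM complex of the outer membrane. From there the SAM complex inserts barrel-shaped outer membrane proteins, small chaperones of the intermembrane space carry hydrophobic precursors to the TIM22 channel, and the TIM23 channel with its ATP-driven motor pulls precursors with a cleavable leader into the matrix, where peptidases remove the leader and the chaperonin folds the product. Skeletal muscle fibres differ widely in how many mitochondria they hold.

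The targeted gene itself was low on every array. The log2 ratio of Eif6 was -0.97, -1.15, -0.89 and -1.06 in gastrocnemius pairs 1 to 4 and -1.22, -1.03, -0.95 and -0.80 in TA pairs 1 to 4, an order that is kept for all values by array that follow. These means, -1.02 ± 0.11 and -1.0 ± 0.17 (SD, n = 4 each), are falls of 2.02-fold and 2.0-fold, with adjusted p of 0.024 and 0.011 (limma, Benjamini-Hochberg over all probes tested in the muscle). With 1 array left out the adjusted p of Eif6 ran up to 0.156 in gastrocnemius, where it was not called without pair 3 or pair 4. Throughout, a gene is called when its adjusted p is under 0.1, and the SD is over the 4 arrays. All 8 muscle fibre markers examined, from Acta1 to Myh4, were well above background in both channels of all arrays. Every member was too, so no member's value is a bound.

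In gastrocnemius 7 of 39 members (17.9%) were called higher in Eif6+/- mice, against 9.85% of the 12611 genes tested, and 0 were called lower, against 5.53%. The 7 were Tomm5, Tomm20 and Tomm40l of the TOM complex, the intermembrane space chaperone Timm10, the motor protein Dnajc15, and both subunits of the chaperonin, Hspd1 and Hspe1. With limma 14 members (35.9%) were higher and 0 lower at an unadjusted p under 0.05, against 17.3% and 11.7% of all genes. SAM, a permutation test named in the methods, called 14 (35.9%) higher and 0 lower, against 17.9% and 6.08% of all genes, at a false discovery rate of 0.1, and 9 (23.1%) and 0, against 9.94% and 2.22%, at the 0.05 that the methods give (added after the data were seen). With Agilent's own processed signals in place of the normalized ones 4 (10.3%) were called higher and 0 lower, against 6.42% and 3.13%. In bulk muscle, fewer cells of a type and less RNA per cell cannot be told apart. The median log2 ratio of the members was 0.15 beside 0.020 for all genes, and by array the members' median was 0.15, 0.019, 0.27 and 0.10. It was above 0 on all 4 arrays but close to it on pair 2. The log2 ratio lay above 0 on all 4 arrays for 18 of 39 members (46.2%), against 21.4% of all genes, and below 0 on all 4 for 1 (2.56%), against 13.9%.

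In TA 2 of 39 members (5.13%) were called higher, Tomm20 and Timm10, against 8.98% of 12383 genes, and 4 (10.3%) were called lower, Samm50, Timm13, Timm50 and Grpel1, against 7.28%. At an unadjusted p under 0.05, 3 (7.69%) were higher and 8 (20.5%) lower, against 16.2% and 12.9% of all genes. With Agilent's signals 0 were called higher and 1 (2.56%) lower, against 4.15% and 2.71%, and SAM called 2 (5.13%) and 8 (20.5%), against 13.995% and 10.3%, at a false discovery rate of 0.1 and 1 (2.56%) and 4 (10.3%), against 5.86% and 3.35%, at 0.05. The log2 ratio lay above 0 on all 4 arrays for 4 members (10.3%) and below 0 on all 4 for 9 (23.1%), against 19.8% and 15.6% of all genes. The members' median log2 ratio was -0.030 beside 0.019 for all genes, and by array -0.0090, 0.070, -0.039 and -0.14. The array medians lie on both sides of 0, and they differ by more than the median's own distance from 0.

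The calls depended on single arrays. Without gastrocnemius pair 3, and likewise without pair 4, limma called 0 of the 39 members and 0 genes in all, with 7 and 9 members higher and 1 and 0 lower at an unadjusted p under 0.05 (17.9% and 23.1% higher, against 11.99% and 12.3% of all genes). Without pair 1 there were 7 called higher, with Tomm40l lost and Dnajc19 gained, and 1 called lower, Samm50. Without pair 2 there were 6 called higher, with Tomm5 and Dnajc15 lost and Immp2l gained. In TA the members called higher and lower went from 2 and 4 to 0 and 0 without pair 1, with 3 higher and 4 lower at an unadjusted p under 0.05 (7.69% and 10.3%, against 9.94% and 7.87% of all genes). They were 1 and 1 without pair 2, where Tomm20 and Samm50 kept their calls, 2 and 1 without pair 3, and 2 and 3 without pair 4, where Timm13 lost its call. Over all genes the calls fell from 1940 in gastrocnemius to 1767 and 1352 without pairs 1 and 2, and in TA they went from 2014 to 68, 531, 1185 and 2020 without pairs 1 to 4. The sign of each called member was the same in every one of these fits. Over all alternatives, gastrocnemius log2 ratios ran from 0.23 to 0.43 for Tomm5, 0.31 to 0.43 for Tomm20 and 0.31 to 0.49 for Tomm40l. They ran from 0.38 to 0.59 for Timm10, 0.28 to 0.39 for Dnajc15, 0.37 to 0.50 for Hspd1 and 0.32 to 0.38 for Hspe1. In TA the ranges were 0.31 to 0.49 for Tomm20, 0.15 to 0.36 for Timm10 and -0.54 to -0.44 for Samm50. Timm13 ran from -0.30 to -0.23, Timm50 from -0.32 to -0.23 and Grpel1 from -0.31 to -0.17.

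**Figure D1:**
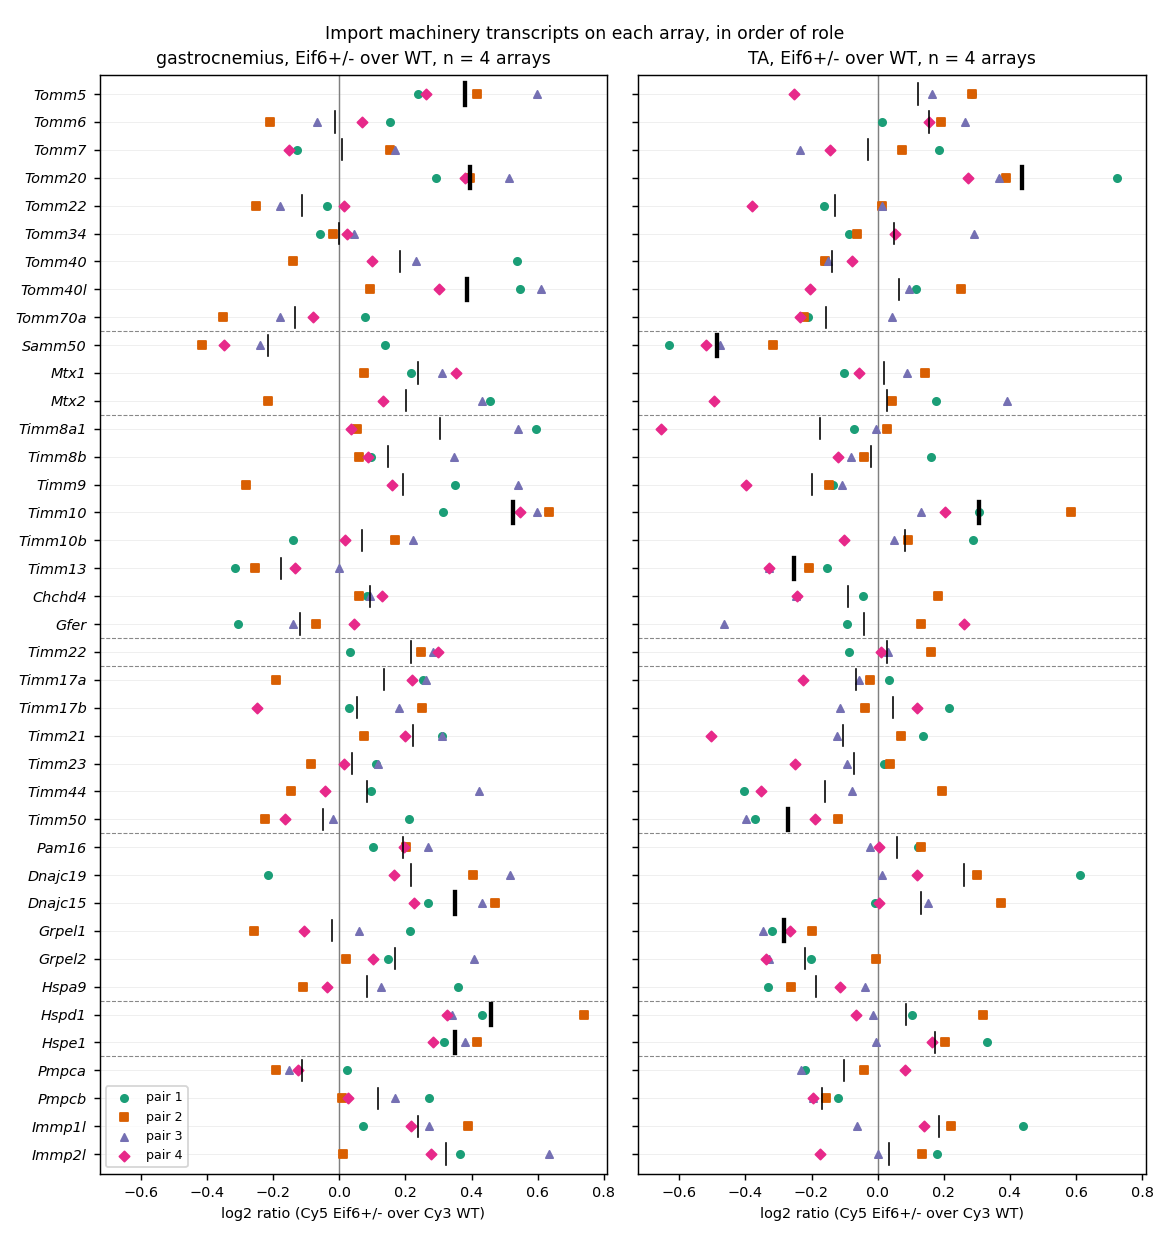
Log2 ratio of Eif6+/- over WT for the 39 members on each of the 4 gastrocnemius arrays (left) and 4 TA arrays (right), in order of role from the TOM complex at the top to the peptidases at the bottom, with dashed lines between roles. Points are single arrays, vertical bars are means, and thick bars mark the members called at an adjusted p under 0.1, which are 7 in gastrocnemius, all to the right of 0, and 6 in TA, of which 4 lie to the left.

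Of the 9 genes listed with the TOM complex, 3 were called higher in gastrocnemius (33.3%) and 1 in TA (11.1%), against 9.85% and 8.98% of all genes. Tomm20, the receptor that recognises cleavable leaders, had log2 ratios of 0.29, 0.40, 0.51 and 0.38 in gastrocnemius and 0.72, 0.39, 0.37 and 0.27 in TA. It was above 0 on all 8 arrays. Its means were 0.40 ± 0.091 and 0.44 ± 0.20, 1.32-fold and 1.35-fold, with adjusted p of 0.037 and 0.033 (between 0.049 and 0.164 with 1 array left out in gastrocnemius and between 0.040 and 0.152 with 1 array left out in TA). A second probe of Tomm20 gave 0.23 and 0.19 and was called in neither muscle (adjusted p = 0.119 and 0.173). Both Tomm20 probes thus lay above 0 in both muscles. Tomm5, a small subunit that stabilises the complex, stood at 0.24, 0.42, 0.60 and 0.26 in gastrocnemius and 0.29, 0.28, 0.16 and -0.25 in TA. Only the first of these was called, at 0.38 ± 0.17 (adjusted p = 0.052, between 0.062 and 0.178 with 1 array left out), while TA gave 0.12 ± 0.26 with 1 array of 4 below 0 (adjusted p = 0.463). The second Tomm5 probe gave 0.075 in gastrocnemius and -0.12 in TA (adjusted p = 0.551 and 0.458), so the call rests on 1 of its probes, and it was lost when the probes of a gene were averaged.

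Tomm40 forms the pore of the complex and Tomm40l is its close relative. Tomm40l read 0.55, 0.093, 0.61 and 0.30 in gastrocnemius, a mean of 0.39 ± 0.24 (adjusted p = 0.069, between 0.064 and 0.233 with 1 array left out), and 0.12, 0.25, 0.094 and -0.21 in TA, a mean of 0.064 ± 0.19 (adjusted p = 0.665). For Tomm40 the gastrocnemius arrays gave 0.54, -0.14, 0.23 and 0.10 and the TA arrays -0.16, -0.16, -0.15 and -0.078, with adjusted p of 0.345 and 0.215. The SD of Tomm40 was 0.28 in gastrocnemius, where pair 1 was high and pair 2 below 0, and 0.040 in TA, where all 4 arrays were below 0. Its second, dimmer probe pointed down in both muscles, at -0.21 in gastrocnemius and -0.44 in TA, and was called in TA alone (adjusted p = 0.384 and 0.028). The 2 Tomm40 probes disagree in sign in gastrocnemius, and their average was called lower in TA, at -0.29 (adjusted p = 0.052). The remaining genes listed with the TOM complex, Tomm6, Tomm7, Tomm22, Tomm34 and Tomm70a, were called in neither muscle. Their means lay between -0.13 (Tomm70a) and 0.0096 (Tomm7) in gastrocnemius and between -0.16 (Tomm70a) and 0.16 (Tomm6) in TA.

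Samm50, the core of the SAM complex, had the lowest log2 ratio of all members in both muscles. On the TA arrays it read -0.63, -0.32, -0.48 and -0.52, below 0 on all 4, with a mean of -0.49 ± 0.13, a fall of 1.40-fold (adjusted p = 0.018, between 0.037 and 0.118 with 1 array left out). In gastrocnemius it read 0.14, -0.42, -0.24 and -0.35, with pair 1 on the other side of 0, and a mean of -0.22 ± 0.25 was not called (adjusted p = 0.234), although it was called lower without pair 1, at -0.34 (adjusted p = 0.080). The metaxins Mtx1 and Mtx2, which sit with Samm50 on the cytosolic face, were called in neither muscle, at 0.24 ± 0.12 and 0.20 ± 0.31 in gastrocnemius and 0.018 ± 0.12 and 0.029 ± 0.38 in TA. The array values of Mtx2 ran from -0.49 to 0.39 in TA, on both sides of 0.

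Among the 8 intermembrane space genes, Timm10 stood highest. Together with Timm9 its protein forms a ring that escorts carrier precursors across the intermembrane space. Timm10 read 0.31, 0.64, 0.60 and 0.55 in gastrocnemius and 0.31, 0.58, 0.13 and 0.21 in TA, above 0 on all 8 arrays. The means were 0.52 ± 0.14 (1.44-fold, adjusted p = 0.031, between 0.035 and 0.156 with 1 array left out), the highest of the 39 members in gastrocnemius, and 0.31 ± 0.20 (1.24-fold, adjusted p = 0.072, between 0.088 and 0.246 with 1 array left out). A second Timm10 probe was called in gastrocnemius at 0.23 (adjusted p = 0.098) and gave -0.0028 in TA (adjusted p = 0.985), where averaging the probes ended the call. Its partner Timm9 read 0.35, -0.28, 0.54 and 0.16 in gastrocnemius and -0.14, -0.15, -0.11 and -0.40 in TA. Timm9 was called in neither (adjusted p = 0.391 and 0.140), and its 4 gastrocnemius arrays lie on both sides of 0. Timm10b, which docks that ring on the TIM22 channel, read -0.14, 0.17, 0.22 and 0.017 in gastrocnemius and 0.29, 0.092, 0.049 and -0.10 in TA, means of 0.067 ± 0.16 and 0.082 ± 0.16 that were not called (adjusted p = 0.651 and 0.542).

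Timm13 and Timm8a1 form the second ring of small chaperones, and Timm8b is a relative of Timm8a1. Timm13 read -0.15, -0.21, -0.33 and -0.33 in TA, a mean of -0.25 ± 0.088 that was called lower (adjusted p = 0.066, between 0.126 and 0.189 with 1 array left out), and -0.18 ± 0.14 in gastrocnemius, where it was not (adjusted p = 0.217). It was below 0 on all 8 arrays, although by less than 0.01 on gastrocnemius pair 3. Timm8a1 read 0.60, 0.052, 0.54 and 0.035 in gastrocnemius and -0.072, 0.030, -0.0048 and -0.66 in TA, and was called in neither (adjusted p = 0.158 and 0.354). It had 2 gastrocnemius arrays near 0 and 2 above 0.5, and 1 TA array far below the others. Timm8b read 0.10, 0.060, 0.35 and 0.087 in gastrocnemius and 0.16, -0.042, -0.082 and -0.12 in TA, with no call (adjusted p = 0.286 and 0.878), and its pair 3 stood above the other gastrocnemius arrays. Chchd4 and Gfer, which trap small precursors by forming disulfide bonds, were not called either, with means of 0.091 ± 0.029 and -0.12 ± 0.15 in gastrocnemius and -0.088 ± 0.20 and -0.042 ± 0.32 in TA.

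Of the 7 inner membrane channel genes, limma called 0 in gastrocnemius, where 9.85% of all genes were called higher and 5.53% lower. There 2 were higher at an unadjusted p under 0.05, against 17.3% of all genes. Limma called 1 of the 7 lower in TA, against 7.28% of all genes. Timm50, the receptor of the TIM23 channel, read -0.37, -0.12, -0.40 and -0.19 there, a mean of -0.27 ± 0.14 (adjusted p = 0.070, between 0.088 and 0.264 with 1 array left out), and 0.21, -0.22, -0.018 and -0.16 in gastrocnemius, a mean of -0.049 ± 0.19 (adjusted p = 0.768). Its second probe gave a TA mean of -0.27 (adjusted p = 0.067), so both probes were called lower. The channel subunit Timm17 exists as a pair of paralogs. Timm17a read 0.25, -0.19, 0.26 and 0.22 in gastrocnemius, where 3 arrays lie close together and pair 2 lies apart, and 0.036, -0.022, -0.056 and -0.23 in TA. Timm17b read 0.028, 0.25, 0.18 and -0.25 in gastrocnemius and 0.22, -0.039, -0.11 and 0.12 in TA, on both sides of 0 in each muscle. Both were uncalled by their brightest probe (adjusted p = 0.411 and 0.582 for Timm17a, 0.769 and 0.742 for Timm17b), but a second probe of Timm17a was called higher in gastrocnemius at 0.30 (adjusted p = 0.078), with 0.13 in TA. The other channel genes had means between 0.038 (Timm23, the pore) and 0.22 (Timm21) in gastrocnemius, and between -0.16 (Timm44, which anchors the motor) and 0.029 (Timm22, the carrier channel) in TA. A second probe of Timm23 gave 0.16 in TA, opposite in sign to the -0.071 of the brightest.

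The import motor is built around Hspa9, the ATP-driven chaperone of the matrix. J-proteins start its cycle and Grpel1 and Grpel2 exchange its nucleotide. Of the J-proteins, Dnajc15 read 0.27, 0.47, 0.43 and 0.23 in gastrocnemius, a mean of 0.35 ± 0.12 that was called higher (1.27-fold, adjusted p = 0.051, between 0.070 and 0.179 with 1 array left out), and -0.0090, 0.37, 0.15 and 0.0028 in TA, a mean of 0.13 ± 0.18 (adjusted p = 0.344). Its paralog Dnajc19 read -0.21, 0.40, 0.52 and 0.16 in gastrocnemius and 0.61, 0.30, 0.012 and 0.12 in TA by the brightest probe, with an SD of 0.32 and 0.26 and no call (adjusted p = 0.308 and 0.142). A dimmer Dnajc19 probe was called higher in both muscles, at 0.66 and 0.56 (adjusted p = 0.027 and 0.012), values above those of any member's brightest probe, and with the probes averaged Dnajc19 was called higher in both, at 0.44 and 0.41 (adjusted p = 0.039 and 0.028). Whether the 2 probes report different transcripts of Dnajc19 was not tested. Pam16, which restrains the J-proteins, read 0.10, 0.20, 0.27 and 0.19 in gastrocnemius and 0.12, 0.13, -0.024 and 0.0050 in TA, above 0 on 7 of 8 arrays but uncalled (adjusted p = 0.143 and 0.612).

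Grpel1 was called lower in TA, where it read -0.32, -0.20, -0.35 and -0.27, a mean of -0.28 ± 0.064 (a fall of 1.22-fold, adjusted p = 0.048, between 0.074 and 0.199 with 1 array left out), and in gastrocnemius it read 0.21, -0.26, 0.061 and -0.11, a mean of -0.022 ± 0.20 (adjusted p = 0.903). Its second probe gave -0.059 in TA (adjusted p = 0.620), and averaging the probes ended the call. Grpel2 read 0.15, 0.019, 0.41 and 0.10 in gastrocnemius and -0.20, -0.0049, -0.33 and -0.34 in TA. It lay above 0 on every gastrocnemius array and below 0 on every TA array, but was called in neither (adjusted p = 0.260 and 0.123), and its second probe was below 0 in both, at -0.21 and -0.11. Hspa9 itself had means of 0.084 ± 0.21 and -0.19 ± 0.13 (adjusted p = 0.610 and 0.159).

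Hspd1 and Hspe1, the large and the small subunit of the matrix chaperonin, were both called higher in gastrocnemius. Hspd1 read 0.43, 0.74, 0.34 and 0.33 there, a mean of 0.46 ± 0.19 (1.38-fold, adjusted p = 0.042, between 0.064 and 0.157 with 1 array left out). Hspe1 read 0.32, 0.42, 0.38 and 0.28, a mean of 0.35 ± 0.060 (1.27-fold, adjusted p = 0.042, between 0.067 and 0.166 with 1 array left out). All 8 of these values were above 0. The TA arrays gave 0.10, 0.32, -0.015 and -0.067 for Hspd1 and 0.33, 0.20, -0.0065 and 0.16 for Hspe1, with means of 0.085 ± 0.17 and 0.17 ± 0.14 that were not called (adjusted p = 0.535 and 0.187). Of 2 further Hspe1 probes, 1 was called in gastrocnemius at 0.35 (adjusted p = 0.058) and the other gave 0.26 (adjusted p = 0.105).

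The 2 chaperonin genes lie head to head, so 1 stretch of DNA lies upstream of both. RefSeq promoter windows (GRCm38.p6) matched 34 of the 39 members, all but Tomm7, Tomm40l, Timm21, Grpel2 and Hspa9, and the 250 bases upstream of each start site were searched on both strands for 6 short motifs. The window of Hspe1 shares 215 bases with a window of Hspd1 on the opposite strand. Both hold CCGGAAG, a core bound by the ETS factor GABP, in both orientations, AAGGTCA, a core bound by the estrogen-related receptors, and GAANNTTC, a heat shock element, which overlaps the CCGGAAG matches. Another Hspd1 window, of a different start site, shares 0 bases with that of Hspe1 and holds 0 motif matches. The windows of 4 members that the calls turn on are shown from 5′ to 3′ with every motif match in capitals.

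Hspe1, upstream window at chr1:55087898-55088147 (GRCm38.p6, plus strand), shared with Hspd1: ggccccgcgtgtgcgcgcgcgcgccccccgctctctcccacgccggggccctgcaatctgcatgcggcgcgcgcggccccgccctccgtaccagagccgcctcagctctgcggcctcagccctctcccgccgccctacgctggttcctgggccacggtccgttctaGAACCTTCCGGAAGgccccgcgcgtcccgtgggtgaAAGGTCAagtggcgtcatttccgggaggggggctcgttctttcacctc
Timm10, called higher in both muscles, at chr2:84826771-84827020 (GRCm38.p6, plus strand): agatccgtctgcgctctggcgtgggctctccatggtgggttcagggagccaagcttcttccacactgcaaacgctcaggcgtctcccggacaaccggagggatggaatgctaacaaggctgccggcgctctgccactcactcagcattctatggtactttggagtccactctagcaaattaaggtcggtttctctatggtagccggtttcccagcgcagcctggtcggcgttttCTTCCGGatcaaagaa
Tomm20, called higher in both muscles, at chr8:126945922-126946171 (GRCm38.p6, minus strand): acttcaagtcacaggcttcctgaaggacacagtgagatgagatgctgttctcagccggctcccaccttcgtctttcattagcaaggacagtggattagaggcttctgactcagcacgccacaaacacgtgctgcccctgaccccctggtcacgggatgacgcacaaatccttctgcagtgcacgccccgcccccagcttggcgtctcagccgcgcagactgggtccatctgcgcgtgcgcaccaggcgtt
Samm50, the lowest member in both muscles, at chr15:84191990-84192239 (GRCm38.p6, plus strand): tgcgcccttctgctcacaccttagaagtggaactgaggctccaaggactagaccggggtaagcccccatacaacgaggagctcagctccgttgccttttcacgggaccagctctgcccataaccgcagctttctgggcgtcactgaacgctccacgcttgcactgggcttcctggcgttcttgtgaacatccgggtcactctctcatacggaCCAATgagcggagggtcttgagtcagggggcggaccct

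Timm10 has CCGGAAG once, on the other strand and close to its start site, Samm50 has CCAAT once, and Tomm20 has none of the 6. CCGGAAG was found upstream of 13 of the 34 members (38.2%), against 6.91% of all 32851 promoters, whereas CCAAT was found at 11 members (32.4%) and 33.8% of all promoters. AAGGTCA was found at 3 members (8.82%, against 4.08%) and GAANNTTC at 3 (8.82%, against 6.69%). GCGCATGC, a core bound by NRF-1, was found at 2, Grpel1 and Timm13 (5.88%, against 2.26%). TGATGNAA, an amino acid response element core, was at 0 members and 3.45% of all promoters. The member windows have a median GC content of 59.2%, against 52.4% for all promoters, and the part of GC content in these shares was not tested. For the GABP core, the estrogen-related receptor core and the heat shock element, Hspd1 and Hspe1 are both counted. Their matches lie in the bases that their windows share, so the same sites are counted for both genes. The member shares count a gene with a match in any of its windows, whereas the shares of all promoters count single windows. A match is a string of letters, and binding was not measured.

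Limma called 0 of the 4 peptidase genes in either muscle. At an unadjusted p under 0.05, 2 were higher in gastrocnemius and 1 lower in TA, against 17.3% and 12.9% of all genes. Pmpca and Pmpcb encode the 2 subunits of the matrix peptidase that cuts off leaders. Pmpca read 0.023, -0.19, -0.15 and -0.13 in gastrocnemius and -0.22, -0.041, -0.23 and 0.082 in TA (adjusted p = 0.376 and 0.425). Pmpcb read 0.27, 0.0087, 0.17 and 0.026 in gastrocnemius and -0.12, -0.16, -0.20 and -0.20 in TA (adjusted p = 0.375 and 0.145), and like Grpel2 it lay above 0 on all gastrocnemius arrays and below 0 on all TA arrays. Immp1l and Immp2l encode the peptidase of the inner membrane. Immp1l read 0.071, 0.39, 0.27 and 0.22 in gastrocnemius and 0.44, 0.22, -0.063 and 0.14 in TA. Immp2l read 0.36, 0.012, 0.63 and 0.28 in gastrocnemius and 0.18, 0.13, 0.00 and -0.18 in TA. Both were above 0 on all gastrocnemius arrays, with means of 0.24 ± 0.13 and 0.32 ± 0.26 (adjusted p = 0.118 and 0.114), and both passed the threshold there with loess normalization alone (adjusted p = 0.099 and 0.099).

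Whether the genotype ratio differed between the muscles was tested directly, as gastrocnemius minus TA over the 8 arrays. Limma called 0 of 39 members, and 0% of 12204 genes, so a call in 1 muscle that is absent in the other is not shown to be a difference. At an unadjusted p under 0.05 there were 10 members (25.6%), against 8.16% of all genes, each with the higher ratio in gastrocnemius. The difference was positive for 32 of 39 members (82.1%), against 52.2% of all genes, with a median of 0.19 log2 units beside 0.0071. The largest were 0.48 ± 0.18 (SE) for Timm8a1, 0.39 ± 0.16 for Timm9, 0.39 ± 0.12 for Grpel2 and 0.37 ± 0.12 for Hspd1, each with an adjusted p of 0.636. The second Grpel2 probe pointed the other way, with the lower mean ratio in gastrocnemius (-0.21, against -0.11 in TA). The second Timm8a1 probe had means of 0.16 in gastrocnemius and -0.076 in TA. These lie closer together than the 0.31 and -0.18 of its brightest probe. A constant dye effect of a probe cancels in this comparison and in the levels compared within 1 dye.

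**Figure D2:**
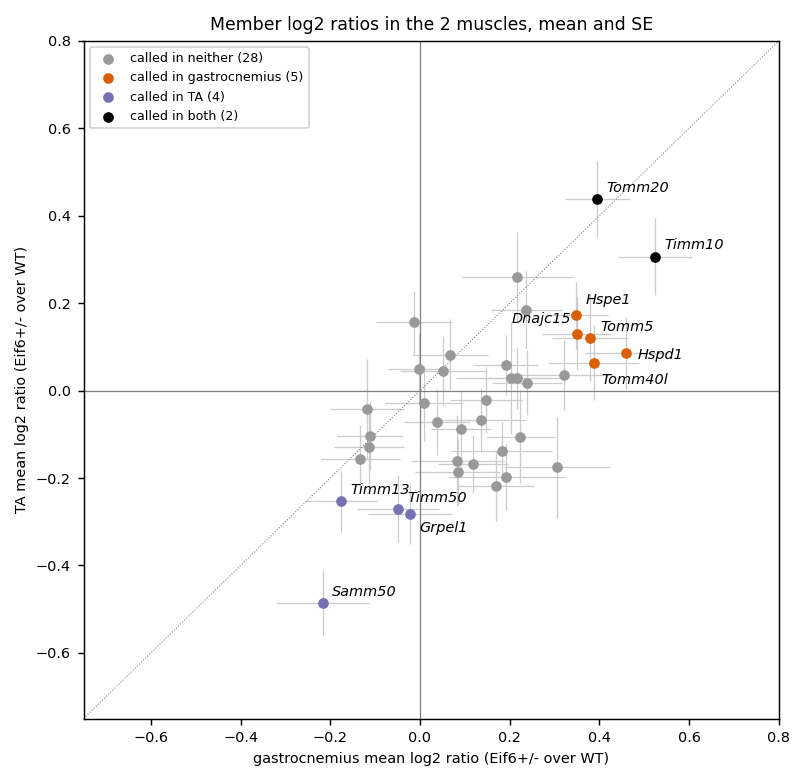
Mean log2 ratio of each member in gastrocnemius (horizontal) against TA (vertical), with SE bars from the limma fits (n = 4 arrays per muscle) and a dotted line of equal ratios. Tomm20 and Timm10 were called in both muscles, 5 members in gastrocnemius alone and 4 in TA alone. Most points lie below the dotted line, that is, with the higher ratio in gastrocnemius (32 of 39, or 82.1%, against 52.2% of all genes).

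The level of the members in the control animals differed between the muscles. Among WT mice 19 of 39 members (48.7%) were called lower in gastrocnemius than in TA, against 13.2% of 12204 genes, and 0 were called higher, against 7.91% (limma on the Cy3 channel). At an unadjusted p under 0.05 the members numbered 19 lower and 0 higher, and all genes 2311 lower and 1471 higher. The median difference was -0.26 log2 units beside -0.033 for all genes. For 16 members (41.0%) the 4 gastrocnemius values lay below all 4 TA values, against 13.3% of all genes. The count was 12 without gastrocnemius pair 3 and 12 without TA pair 4, where the share of all genes called either way went from 21.1% to 12.7% and 13.3%. The labels do not say whether both muscles came from the same mice, and the fit treats them as separate. The muscles lie in different rows of 1 slide, so that muscle and row cannot be told apart.

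Tomm40l differed with the lowest adjusted p. Its WT log2 level was 8.51, 8.42, 8.42 and 8.45 in gastrocnemius and 9.02, 9.02, 9.06 and 9.31 in TA, a difference of -0.65 ± 0.085 (SE), or 1.57-fold more in TA (adjusted p = 0.0037). Immp2l was at 8.04, 8.02, 7.83 and 8.16 in gastrocnemius and 8.43, 8.51, 8.51 and 8.72 in TA, a difference of -0.53 (adjusted p = 0.011). Timm8a1 was at 8.99, 9.14, 9.24 and 9.47 in gastrocnemius and 9.73, 9.82, 9.85 and 10.22 in TA, 1.62-fold more in TA (adjusted p = 0.013). None of these 3 overlapped between the muscles. The peptidase subunit Pmpcb was at 11.61, 11.75, 11.65 and 11.82 in gastrocnemius and 12.12, 12.07, 12.03 and 12.10 in TA, a difference of -0.38 (adjusted p = 0.015). The motor chaperone Hspa9 was at 12.53, 12.73, 12.58 and 12.90 in gastrocnemius and 13.30, 13.24, 13.08 and 13.07 in TA, 1.40-fold more in TA (adjusted p = 0.016). These ranges did not overlap either.

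The other members among the 10 with the lowest adjusted p were Timm21, which links TIM23 to TOM and to the respiratory chain (-0.53, adjusted p = 0.020), Timm9 (-0.49, adjusted p = 0.020), Timm44 (-0.47, adjusted p = 0.022), Timm8b (-0.35, adjusted p = 0.024) and Mtx2. All 10 were called in each of the 16 alternatives tried, single arrays left out included. Timm23 was too, and the other 8 called members were called in 7 (Timm10) to 14 (Hspd1) of them. Mtx2 had the largest difference of the 39, -0.74 ± 0.17 (SE), from 9.44, 9.84, 9.57 and 9.91 in gastrocnemius to 10.24, 10.42, 10.14 and 10.92 in TA (adjusted p = 0.025). By role, 4 of 6 TIM23 genes, 4 of 6 motor genes, 4 of 8 intermembrane space genes and 2 of 9 genes listed with TOM were called lower in gastrocnemius. So were 1 of 3 SAM genes, both chaperonin genes and 2 of 4 peptidase genes, and Timm22 was not. The share of all genes called lower was 13.2%, and differences between roles were not tested. Of the paralog pairs, Timm17a was called (-0.32, adjusted p = 0.078) and Timm17b was not (0.033, adjusted p = 0.812), as were Tomm40l but not Tomm40 (-0.22, adjusted p = 0.213) and Immp2l but not Immp1l (-0.11, adjusted p = 0.442). The differences within a pair were not tested. Both Grpel genes were called, Grpel2 at -0.26 (adjusted p = 0.050), although a second Grpel2 probe gave 0.026 (adjusted p = 0.897). The 2 Tomm20 probes also differed in sign, at -0.069 and 0.039, and neither was called (adjusted p = 0.732 and 0.855).

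**Figure D3:**
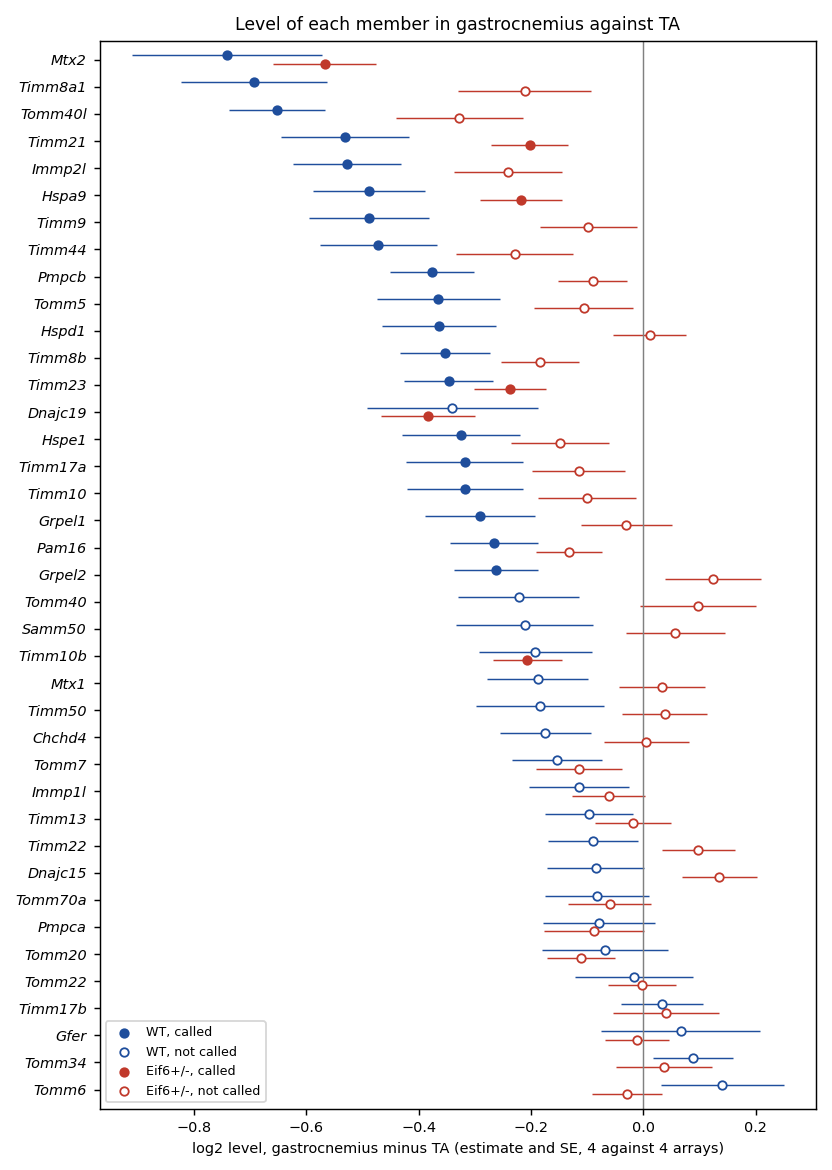
Difference in log2 level of each member between gastrocnemius and TA, in WT (blue, Cy3) and in Eif6+/- mice (red, Cy5), as the limma estimate with its SE (4 against 4 arrays). Values left of 0 are lower in gastrocnemius, filled points are called at an adjusted p under 0.1 (19 in WT, 6 in Eif6+/-), and the members are ordered by the WT difference.

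In Eif6+/- mice the same contrast, added after the data were seen, called 6 of 39 members lower in gastrocnemius (15.4%), against 10.2% of genes, and 0 higher, against 6.68%. The 6 were Mtx2 (-0.57), Dnajc19 (-0.38), Timm23 (-0.24), Hspa9 (-0.22), Timm10b (-0.21) and Timm21 (-0.20), with adjusted p between 0.0091 and 0.095. By limma 10 members (25.6%) had an unadjusted p under 0.05, all of them lower, against 28.2% of all genes, of which 2088 were lower and 1354 higher. The members' median was -0.090 beside -0.026 for all genes. It moved to -0.25 with Agilent's processed signals. The count was 25 with Agilent's processed signals, where the share of all genes called either way rose from 16.9% to 34.5%. It was 2 without gastrocnemius pair 4, TA pair 1 or TA pair 2 (9.60%, 7.81% and 8.68% of all genes), and 3 without gastrocnemius pair 2 or TA pair 4 (9.64% and 11.8%). The change from the WT to the Eif6+/- contrast is the difference of the genotype ratios between muscles, for which 0 members were called, and the contrasts share their WT samples with the ratios. For Hspd1 the WT difference of -0.36, the Eif6+/- difference of 0.011 and the ratios of 0.46 and 0.085 come from the same 16 labelled RNA samples.

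Other tissue markers moved with the muscle too. Of the 6 slow fibre genes 5 were called higher in WT gastrocnemius than in WT TA. The summed intensity of the 6 was 14094, 64167, 40327 and 151317 in WT gastrocnemius and 11836, 34320, 10112 and 37973 in WT TA. Myl3, the most abundant, was the 1 not called by limma (0.27, adjusted p = 0.835). WT gastrocnemius pair 1 lies within the range of the TA sums. On the Eif6+/- side the gastrocnemius sum was 133156, 30062, 46156 and 132937, so that pair 1 joined a WT muscle low in these genes to an Eif6+/- muscle high in them. Of the fat cell genes 4 of 5 tested were called higher in WT gastrocnemius (summed intensity 17197, 14017, 11122 and 24092, against 12946, 12366, 12970 and 13968 in TA). Fabp4, the most abundant in that sum, was the 1 tested gene not called by limma (-0.00085, adjusted p = 0.998). Lep was well above background on 1 of 8 arrays in WT. Of the 6 connective tissue genes 4 were called higher (summed intensity 167548, 111131, 285459 and 132575, against 61689, 94514, 39608 and 87931, Col1a2 the most abundant). Of the 8 muscle fibre genes 1, the oxygen store Mb, was called lower in gastrocnemius, at -1.35 (adjusted p = 0.041), and their sum was 1165060, 1112560, 1030630 and 1185570 against 1045070, 1218740, 1199360 and 1015920, Pvalb the most abundant. The leukocyte, red blood cell and endothelial genes had 0 called between the WT muscles, with 2 of 3 leukocyte genes higher in gastrocnemius at an unadjusted p under 0.05, and 1 of 5 nerve genes, Pmp22, was called higher there. Between the Eif6+/- muscles 6 of 6 slow fibre, 5 of 5 nerve, 3 of 5 fat cell, 2 of 4 red blood cell, 1 of 3 leukocyte and 1 of 6 connective tissue genes were called higher in gastrocnemius, Fabp4 and the endothelial gene Cdh5 lower, and 0 of 8 muscle fibre genes either way. The part of these tissues in the members' difference was not tested.

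Between the genotypes, limma called 0 of 6 slow fibre genes in gastrocnemius, 0 of them at an unadjusted p under 0.05 either, and 3 lower in TA (summed intensity 11946, 23860, 9686 and 13763 in Eif6+/- mice). The leukocyte marker Cd74 was called lower in gastrocnemius at -1.10 (adjusted p = 0.045), the 1 called of 3 leukocyte genes tested and 7 listed, all 3 of them lower at an unadjusted p under 0.05. The summed intensity of the list was 3514, 2695, 7159 and 2113 in WT and 1718, 1855, 1770 and 1600 in Eif6+/- gastrocnemius. WT pair 3 stands highest in that list and in the connective tissue list, and pair 3 is also the array with the highest median of the members. All 4 red blood cell genes were called lower in TA (summed intensity 27811, 24442, 22398 and 23135 in WT and 17040, 10572, 14339 and 18194 in Eif6+/- mice, Hba-a1 the most abundant). In TA 3 of 5 fat cell genes were called higher, 3 of 5 myelinated nerve genes and 2 of 4 endothelial genes lower. The nerve sum there was 2668, 3453, 2592 and 3203 in WT and 2384, 2367, 2438 and 2313 in Eif6+/- mice, with Pmp22 the most abundant. In gastrocnemius 1 of 5 fat cell genes, 1 of 4 endothelial genes and 2 of 8 muscle fibre genes, Ckm and Actn3, were called lower. Of the muscle fibre genes in TA, Myh4 was called higher at 0.80 (adjusted p = 0.012) and Mb lower at -0.54 (adjusted p = 0.066), and the leukocyte gene S100a9 was called lower at -1.61 (adjusted p = 0.034), 1 of 5 leukocyte genes tested there. Whether these shifts bear on the members' ratios was not tested.

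**Figure D4:**
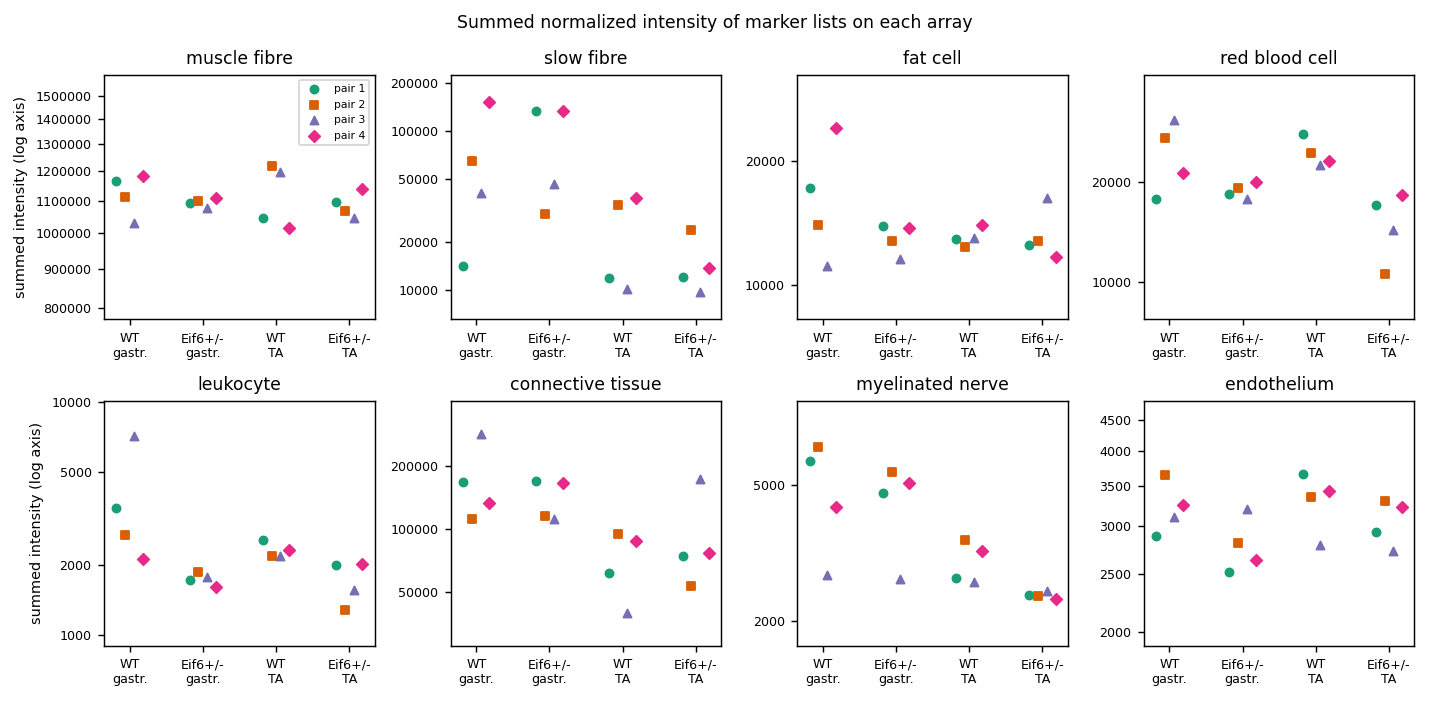
Summed normalized intensity (log axes) of each marker list in the WT (Cy3) and Eif6+/- (Cy5) channel of the 4 gastrocnemius and 4 TA arrays, with 1 symbol per pair. Slow fibre sums ran from 14094 to 151317 in WT gastrocnemius, all 4 connective tissue sums in WT gastrocnemius lay above those in WT TA, and all 4 red blood cell sums in TA of Eif6+/- mice lay below those of WT mice.

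Genes that work beside the import machinery were read from lists of the same kind. Of the other import and insertion factors, 2 of 9 tested were called higher in gastrocnemius, Agk, a subunit of the TIM22 complex (0.38, adjusted p = 0.051), and the inner membrane insertase Oxa1l (0.33, adjusted p = 0.077). In TA 1 of 10 was called higher, the leader-degrading protease Pitrm1 (0.21, adjusted p = 0.099). Of 10 MICOS and prohibitin genes, which shape the cristae, 3 were called higher in gastrocnemius, Chchd3 (0.39), Micos10 (0.36) and Phb (0.28), and 3 lower in TA, Phb2 (-0.36), Immt (-0.30) and Micos13 (-0.29). The 12 mitochondrial proteases and chaperones gave 1 called higher in gastrocnemius, Lonp1 (0.33), and 3 called lower in TA, Trap1 (-0.40), Clpp (-0.37) and Parl (-0.33). In this order of lists, 22.2%, 30% and 8.33% were called higher in gastrocnemius, against 9.85% of all genes. None was called lower there, against 5.53%. In TA 10%, 0% and 0% were called higher, against 8.98%, and 0%, 30% and 25% lower, against 7.28%. For the difference between muscles limma called 0 genes of these 3 lists, and 4 had an unadjusted p under 0.05, all with the higher ratio in gastrocnemius.

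Between the WT muscles, 9 of 12 proteases and chaperones, 5 of 10 MICOS and prohibitin genes and 2 of 9 other import factors were called lower in gastrocnemius, and 1, Chchd6, higher. The shares called lower were 75%, 50% and 22.2%, against 13.2% of all genes, and 7.91% of all genes were called higher. The lowest were Phb (-0.69), Chchd3 (-0.62) and Apool (-0.61). Of 7 cytosolic chaperones that hand over precursors, 0 were called in that contrast by limma, and 1 was higher and 1 lower at an unadjusted p under 0.05. Between the genotypes Hspa8 was called higher in both muscles (0.27 in gastrocnemius and 0.35 in TA), Stip1 lower in both (-0.40 and -0.46), and Dnaja1 was called higher in TA (0.38). Among 5 stress genes tested, Atf4, a transcription factor that responds to faulty import among other stresses, was called higher in both muscles (0.51, adjusted p = 0.029, and 0.53, adjusted p = 0.030), and Atf5 in gastrocnemius (0.36, adjusted p = 0.086). Their targets Ddit3, Trib3 and Asns were called in neither, and Fgf21 and Gdf15 were not well above background on enough arrays to be tested.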

How the data were processed

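The authors deposited Agilent Feature Extraction output with unnormalized intensity per spot, and a table of log2 ratios per spot that they made. That table matched loess-normalized log2 ratios of uncorrected intensities (r from 0.999963 to 0.999996, column medians 0.00257, 0.000831, -0.00441, 0.00375, 0.00138, -0.000366, 0.00288 and 0.00212), which settles its scale, centring and direction. Cy5 is Eif6+/- and Cy3 WT by the labels. Median intensities were corrected with limma 3.58.1 in R 4.3.3 (normexp, offset 50), normalized by loess within arrays and by quantiles across channels, and freed of control and outlier spots. Signals were well above background for 38.7% to 48.6% of the 55681 probes, depending on array and dye. Probes above background in 1 channel on all 4 arrays of a muscle were tested (23802 in gastrocnemius, 23391 in TA, 22765 in both) with lmFit and eBayes, checked on simulated data. Accessions of 27235 probes matched RefSeq names (GRCm38.p6), and a gene was read by its brightest probe. Promoter letters were searched in Python 3.11.15. The methods name quantile normalization and SAM at a false discovery rate of 0.05. SAM is an alternative here, run at 0.1 as planned, the cutoff of limma here, and at 0.05 as added later. Named in full were members called in either muscle, 4 whose proteins the study names, paralogs and partners, and the 10 lowest adjusted p between WT muscles. The result for 1 gene of the wider pathway lists is not reported here. Members and lists were chosen with earlier results of these data known. The 4 arrays per muscle limit the precision, and p-values measure only the spread between these pairs.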

Additional observations from a re-analysis of the deposited data

Results flagged for a closer look

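In 6 of 78 sets of 4 arrays (7.69%, 39 members in each muscle), 1 array stood apart from the other 3 by Dixon's criterion, where chance gives about 1 in 20. On gastrocnemius pair 3 the log2 ratio of Timm8b was 0.35, with the other 3 between 0.060 and 0.10. On gastrocnemius pair 2 that of the channel subunit Timm17a was -0.19, with the other 3 between 0.22 and 0.26. In TA 3 of the 4 such values were on pair 4. There Timm8a1 was at -0.66, with the other 3 between -0.072 and 0.030. Timm9 was at -0.40, with the other 3 between -0.15 and -0.11, and Tomm40 at -0.078, with the other 3 between -0.16 and -0.15. On TA pair 3 the receptor Tomm70a was at 0.044, with the other 3 between -0.24 and -0.21. None of these 6 sets belongs to a member called in that muscle.

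The motor protein Grpel2 and the peptidase subunit Pmpcb were above 0 on all 4 gastrocnemius arrays and below 0 on all 4 TA arrays by their brightest probe. The second Grpel2 probe had means below 0 in both muscles (-0.21 and -0.11), so the change of sign rests on 1 probe. The differences were 0.39 and 0.29 log2 units, and the direct test of each gave an adjusted p of 0.636 (limma), so neither was called.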

How the results depend on the processing

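No member called in gastrocnemius, TA or between the WT muscles changed sign in any alternative. In brackets below is the share of all genes called the same way, either way in the contrasts between muscles. The count of members called higher in gastrocnemius (7, 9.85%) was 4 with Agilent's processed signals (6.42%), 4 at an adjusted p under 0.05 (3.43%) and 14 by SAM (17.9%), and it ran from 0 to 7 with 1 array left out, while the count called lower (0) ran from 0 to 1. In TA the count called higher (2, 8.98%) was 1 with a normexp offset of 0 (5.54%), 0 with Agilent's processed signals (4.15%), 1 at an adjusted p under 0.05 (4.04%) and 1 by SAM at a false discovery rate of 0.05 (5.86%), from 0 to 2 with 1 array left out. The count called lower (4, 7.28%) was 1 with an offset of 0 (4.27%), 1 with Agilent's processed signals (2.71%), 2 at an adjusted p under 0.05 (2.72%) and 8 by SAM (10.3%), from 0 to 3 with 1 array left out. Between the WT muscles 19 (21.1%) became 12 at an adjusted p under 0.05 (12.5%) and ran from 12 to 19 with 1 array left out. In Eif6+/- mice, a contrast and alternatives chosen after the data were seen, 6 (16.9%) became 3 with an offset of 0 (15.1%), 25 with Agilent's processed signals (34.5%) and 3 at an adjusted p under 0.05 (8.56%), and ran from 2 to 7. Apart from the changes at the stricter threshold, the cause of these changes was not tested. No background correction, loess without quantile normalization, both filters on dim probes, averaging over probes and the authors' log2 ratios kept every one of these counts within 1.5 times where they apply, although averaging exchanged members, with Dnajc19 for Tomm5 in gastrocnemius, and Dnajc19 for Timm10 and Tomm40 for Grpel1 in TA. The difference between muscles had 0 members called in all 19 settings. The members' median ratio stayed between 0.091 and 0.18 in gastrocnemius and between -0.073 and 0.012 in TA. Agilent's processed signals moved the median WT difference of all genes from -0.033 to -0.13 and that of the members from -0.26 to -0.43.

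With the pair number as a block, 0 members were called for the difference, 15 between the WT muscles (15.2% of all genes, from 21.1%) and 3 between the Eif6+/- muscles (18.4%, from 16.9%). Same-numbered arrays of the 2 muscles correlated at -0.14, 0.019, -0.36 and 0.090 in their deviations from the muscle means, and no array correlated best with its own number, so arrays of the same number were not taken as pairs.

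With 4 arrays per muscle, no dye swap, 1 slide and most genes read by 1 probe, the number of arrays limits the precision. Dye and genotype cannot be told apart within a muscle, nor can muscle and slide row. Every member was well above background on all arrays. The part of signal level in the ratios of the dimmer members, such as Grpel2 and Immp2l, was not tested. The markers of other tissues that moved between muscles and genotypes were set beside the members' values, and their part was not tested. These arrays measure transcripts, and protein levels were not analysed here.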
